A study of Homo sapiens with 6 samples.

Results

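The sequence beside the centromeres of LNCaP cells, an established prostate cancer cell line, was examined in a Hi-C experiment on depletion of CTCF, a DNA-binding protein that marks the borders of chromatin domains. Pericentromeric bins were the 40 kb bins whose midpoint lay within 5 Mb of an edge of the centromere gap of an autosome in hg19, a placeholder of 3 Mb, and that had contacts in both maps. There were 4257 such bins among 61110 autosomal bins with contacts in both maps, on 37 of the chromosome arms. Each siRNA pool was used at 20 nM, either one without a target (control siRNA, 2 libraries) or one against CTCF (CTCF siRNA, 4 libraries), and cells were collected after 144 h. The labels number 2 of the CTCF siRNA libraries as further versions of the other 2 and do not say which libraries came from separate cultures. No genetic change other than those of the cell line was introduced, and all cells came from the same line. The authors pooled the libraries of each condition, so there is 1 contact map and 1 list of domains per condition, no difference below could be set against the spread between replicates, and every interval stands for counting error or for variation along the genome and not for repeat experiments.

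Human centromeres are built of alpha satellite, a tandem repeat, and some of its units carry the CENP-B box, a short motif bound by the centromere protein CENP-B. The flanking pericentromeric sequence holds further satellites, young segmental duplications shared between chromosomes, and blocks of constitutive heterochromatin. In nuclei, centromeres tend to gather in chromocentres and at the edge of nucleoli. Because reads from repeats can be placed at several sites, the measured contacts of such sequence depend on mapping as well as on folding.

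The windows held 5500 bins, of which 1054 had no sequence in the reference. No bin with contacts was left on the short arms of chromosomes 13, 14, 15 and 22, or on the long arms of chromosomes 1, 9 and 16. The deposited values carried a correction factor for each bin position between 9.4 and 48.12 Mb that was the same on every chromosome, and 2596 pericentromeric bins lay at such positions. The factors were divided out and read pair counts were used. Of the window bins with sequence, 189 lacked contacts in at least 1 of the maps. Positions without any contact on any chromosome held 477 window bins, counted with or without sequence. Of these, 97 were on the short arm of chromosome 18, where 27 bins were left. The maps held 26174682 read pairs in control siRNA and 87658106 in CTCF siRNA, which makes the CTCF siRNA map the deeper and the more precise of the pair.

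Sequence that occurs more than once was concentrated beside the gap. The share of sampled 32-mers, words of 32 bases, that occur elsewhere in the genome had a median of 29.3% in bins 0 to 1 Mb from the gap, 16.9% at 1 to 2 Mb and 13.7% at 4 to 5 Mb, against 10.3% in other autosomal bins. At least 50% of the words occurred elsewhere in 614 pericentromeric bins, or 14.4%, where the share over all autosomal bins was 2.99%. A repeat with a unit of 171 bases, the length of an alpha satellite unit, was found as at least 50% of bases equal to the base 1 unit further on. It was present in 63 pericentromeric bins, 57 of them within 1 Mb of the gap, and in 13 other autosomal bins (0.124% of all bins). The CENP-B box, searched by its consensus of 17 bases on both strands, occurred in 106 pericentromeric and 613 other bins (1.18% of all bins). A pericentromeric bin on the short arm of chromosome 2 held 81 boxes. It was chosen for its many boxes, and its rank among all bins is not given. From this bin, 1 repeat unit is shown to make the repeat visible, with the box in capitals (GRCh37, plus strand).
chr2:92283894-92284064: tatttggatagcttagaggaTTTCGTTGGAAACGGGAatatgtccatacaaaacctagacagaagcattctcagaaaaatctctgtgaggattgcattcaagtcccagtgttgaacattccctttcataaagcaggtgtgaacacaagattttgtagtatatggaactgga

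This unit differed from the next at 61 of its 171 bases.

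Coverage was lowest where repeats were densest. The cis contacts of a bin, those within its chromosome, had a median of 111.5 in control siRNA and 398 in CTCF siRNA at 0 to 1 Mb, which was 0.310 and 0.295 of the median of the bin's own chromosome. At 4 to 5 Mb these ratios were 0.890 and 0.885. The share of a bin's contacts that joined other chromosomes ran the other way, with medians of 68.8% and 61.7% at 0 to 1 Mb and of 50.6% and 43.2% in other autosomal bins. A bin was called usable where its cis count reached 10% of its chromosome's median in both maps. By this measure 3692 pericentromeric bins were usable, 68.4% of those at 0 to 1 Mb and 92.0% of those at 4 to 5 Mb, against 98.5% of other bins. On the short arm of chromosome 9, none of the 92 bins was usable, and a median of 95.5% of their 32-mers occurred elsewhere.

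Topologically associating domains (TADs), stretches of chromatin that interact with themselves more than with the flanking sequence, covered somewhat less of the pericentromeric bins than of the rest of the autosomes in both lists. In control siRNA, 3756 of 4257 pericentromeric bins, or 88.2% (Wilson 95% interval 87.2 to 89.2%), lay in a TAD, against 92.7% of other bins and 92.4% of all bins. In CTCF siRNA the count was 3750, or 88.1% (87.1 to 89.0%), against 90.3% of other bins and 90.1% of all. Neighbouring bins share a TAD, so these intervals are too narrow. With a window of 2 Mb the order turned in CTCF siRNA, at 91.5% (90.1 to 92.8%), and not in control siRNA, at 86.2%. Among usable bins alone the order turned in both, with cover of 94.4% against 93.5% in control siRNA and 92.9% against 91.0% in CTCF siRNA. The cover of pericentromeric bins was below that of the other bins of the same chromosome on 14 of 22 chromosomes in control siRNA and on 10 in CTCF siRNA.

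The 2 lists differed most at the ends of the windows. At 0 to 1 Mb from the gap, cover was 83.1% (80.3 to 85.5%) in control siRNA and 89.3% (87.1 to 91.3%) in CTCF siRNA, and at 4 to 5 Mb it was 88.5% (86.2 to 90.4%) and 83.0% (80.4 to 85.4%). So, over all arms pooled, the control list was the lower one beside the gap and the higher one at the far end. Single arms weigh on these values. At 4 to 5 Mb the counts were 767 and 720 bins. The long arm of chromosome 6 alone had 123 bins in a TAD in control siRNA and 59 in CTCF siRNA over its whole window. Of the 36 arms with at least 20 bins, 23 had higher cover in CTCF siRNA, 7 had higher cover in control siRNA and 6 had equal cover. The plot of TAD cover by distance shows these values beside the repeat content and the coverage, whose part in the difference between the lists was not tested.

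**Figure D1:**
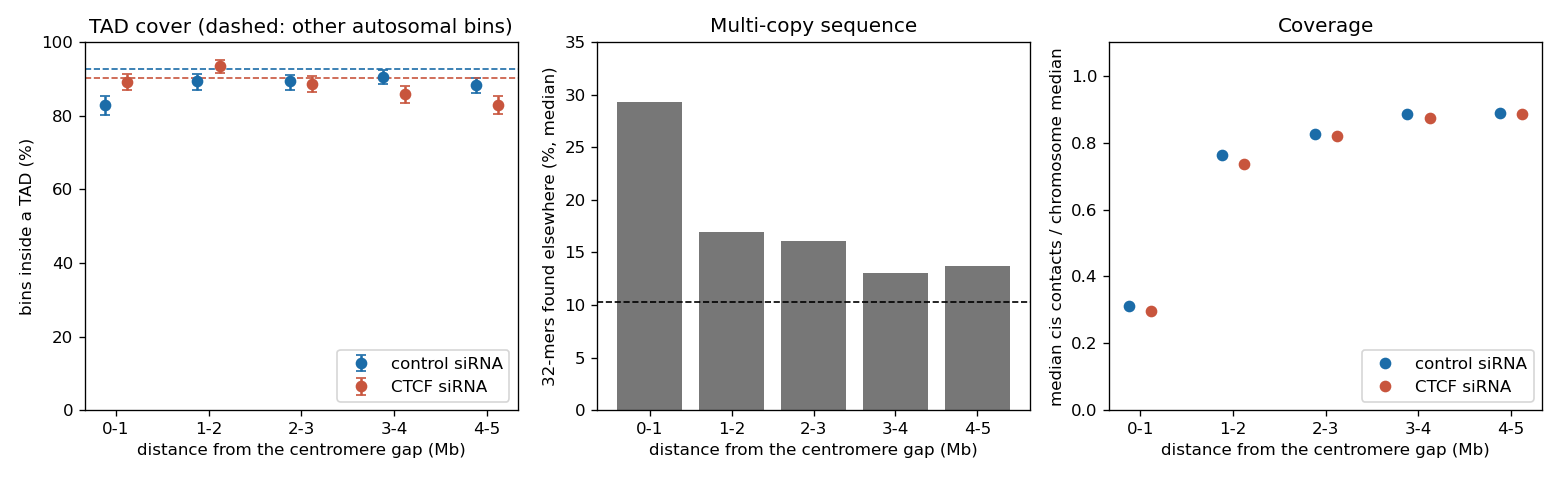
TAD cover (%, left, with Wilson 95% intervals over bins), the median share of sampled 32-mers found elsewhere (%, middle) and median cis contacts relative to the chromosome's median (right), each by distance of the bin from the centromere gap in Mb. Dashed lines are other autosomal bins. Repeat content was highest and coverage lowest at 0 to 1 Mb, where control cover was 83.1% and CTCF siRNA cover 89.3%.

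Single arms ranged from no cover to full cover. In control siRNA the highest cover was on the long arms of chromosomes 3 and 8, with all 125 bins of each in a TAD, and on the long arm of chromosome 6, at 99.2%. In CTCF siRNA the long arm of chromosome 3 was again fully covered, that of chromosome 8 was at 79.2% (71.3 to 85.4%) and that of chromosome 6 at 47.6% (39.0 to 56.3%). The long arm of chromosome 6 thus had the largest gap between the lists among arms with at least 20 bins. The short arm of chromosome 21, with only 18 bins, had 0 of them in a TAD in control siRNA and 15 in CTCF siRNA. Among arms with at least 20 bins, the lowest control cover was on the short arm of chromosome 9, with 0 of 92 bins in both lists, on the short arm of chromosome 2, at 50.5% and then 52.7%, and on the long arm of chromosome 22, at 66.9% and then 71.2%. These 3 arms had 0, 36 and 80 usable bins.

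TADs centred in pericentromeric bins numbered 143 in control siRNA, with a median length of 840 kb (95% interval 680 to 1040 kb), and 121 in CTCF siRNA, with a median of 880 kb (760 to 1200 kb). Elsewhere on the autosomes the medians were 720 and 800 kb. Each list held 1 TAD that spanned a whole centromere gap. On 33 of 36 arms, in each list, the nearest TAD began within 1 Mb of the gap. The farthest was on the short arm of chromosome 9, 8.23 Mb from the gap in control siRNA and 8.19 Mb in CTCF siRNA.

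Boundaries between TADs were sparser beside centromeres than elsewhere. In control siRNA there were 181 boundaries in pericentromeric bins, 1.06 per Mb against 1.39 per Mb elsewhere, and in CTCF siRNA 152, or 0.893 against 1.16 per Mb. No CTCF siRNA boundary lay within 40 kb of 77 of the 181 control boundaries, a loss of 42.5% (Wilson 95% interval 35.6 to 49.8%), where the share over all autosomal boundaries was 49.1% and that elsewhere 49.5% (47.8 to 51.2%). Conversely, 49 of the 152 CTCF siRNA boundaries, or 32.2% (25.3 to 40.03%), had no control boundary nearby, where the share over all was 39.0%. The intervals of pericentromeric and other boundaries overlap in both directions. No insulation value, described next, could be computed at 34 of the 181 control boundaries, 25 of them maintained, and among the other 147 the loss was 46.3% (38.4 to 54.3%), against 51.4% (49.5 to 53.3%) elsewhere and 51.1% over all. Where only the same position counted as shared, the loss was 67.4% (60.3 to 73.8%), against 70.4% (68.8 to 72.0%) elsewhere and 70.3% over all.

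Contacts across control boundaries were compared with those of their flanks in both maps. The boundaries were called on the control map, where they are low points by choice, so a value nearer 0 in the other map follows in part from that choice and the values are given as a description. The insulation value is the log2 ratio of contacts across a bin to contacts within its flanks of 400 kb, both over expected, so that a value nearer 0 means a weaker barrier. The median over the 147 pericentromeric control boundaries with a value was -0.88 in control siRNA and -0.36 in CTCF siRNA, and the median difference, CTCF siRNA minus control, was 0.38 (95% interval 0.29 to 0.49). It was 0.48 (0.46 to 0.50) over the 2731 other control boundaries. The value was higher in CTCF siRNA at 119 of the 147, or 81.0%, where the share over all control boundaries was 87.1%. In the interiors of pericentromeric TADs the median difference was -0.03. Lost, maintained and gained boundaries were defined by TAD calls on the same maps, so the order of their values restates those calls. Boundaries that were lost had a median difference of 0.57 (0.39 to 0.64, 68 boundaries) and those maintained 0.26 (0.15 to 0.38, 79 boundaries), while the 41 gained boundaries had -0.36 (-0.47 to 0.05). The same classes elsewhere had 0.58, 0.35 and -0.11.

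Among lost boundaries with at least 50 contacts expected across, the largest difference was at chr1:117040001-117080000, 4.48 Mb from the gap, a bin that overlaps CD58, a cell adhesion molecule of immune recognition. Its insulation value was -1.43 in control siRNA and -0.06 in CTCF siRNA, a difference of 1.37 ± 0.11 (counting SD from 200 Poisson redraws). The next were a bin on the long arm of chromosome 8 near SNAI2, a transcription factor of epithelial to mesenchymal transition, with 1.28 ± 0.13, and one on the long arm of chromosome 18 near RBBP8, which acts in DNA end resection, with 1.28 ± 0.17. Among maintained boundaries the largest difference was on the short arm of chromosome 7 in a bin overlapping SEC61G, a subunit of the protein translocation channel, where the value was -2.13 in control siRNA and -0.60 in CTCF siRNA, a difference of 1.53 ± 0.16. A bin within PARD3, a cell polarity gene on the short arm of chromosome 10, followed with 1.24 ± 0.12, and a bin on the long arm of chromosome 22 with 1.2 ± 0.24. These 6 were named for the size of their difference, so that size and their shared direction are a description, and the SD leaves out the variation between libraries.

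Contacts between the short and the long arm could be counted on the 15 chromosomes with usable bins on both sides of the gap. In total there were 8623 contacts in control siRNA and 29161 in CTCF siRNA, which was 0.943 (exact Poisson 95% interval 0.923 to 0.963) and 0.896 (0.886 to 0.906) of the number expected from pairs within an arm at the same distance. The result depends on how the gap and the coverage are treated. With expected numbers scaled also by the coverage of the bins, the ratios were 0.999 (0.978 to 1.02) and 0.964 (0.952 to 0.975), and with a window of 2 Mb they were 1.5 and 1.33. Taking the 3 Mb of the gap out of the distance gave 0.388 and 0.321, and the true length of a centromere is not that of the placeholder. No general deficit or excess across the centromere can therefore be stated.

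The ratio depended on separation. For bins 3 to 5 Mb apart, the closest possible across the gap, it was 1.71 (1.62 to 1.80) in control siRNA and 1.46 (1.42 to 1.51) in CTCF siRNA. At 7 to 9 Mb it was 0.807 (0.777 to 0.839) and 0.759 (0.743 to 0.775), and it stayed below 1 up to 13 Mb. The excess at 3 to 5 Mb was present on 7 of 15 chromosomes in control siRNA and 8 of 15 in CTCF siRNA. Chromosome 6 gave 344 of the 1472 control contacts at 3 to 5 Mb, and without it the control ratio was 1.43. In CTCF siRNA chromosome 17 gave 950 of the 4623 contacts at that separation, and without it the ratio was 1.32.

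**Figure D2:**
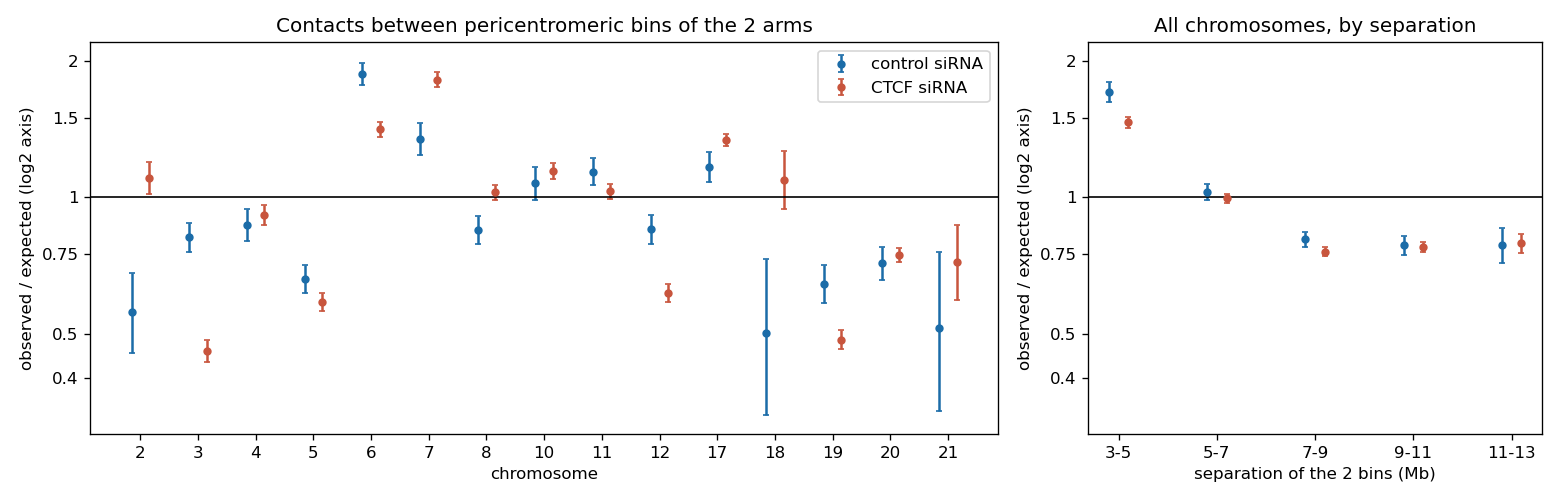
Observed over expected contacts between pericentromeric bins of the short and long arm, by chromosome (left) and by separation of the bins in Mb over all 15 chromosomes (right), on log2 axes. Points are the ratios of each map and bars exact Poisson 95% intervals. The intervals of chromosomes 6, 7 and 17 lie above 1 in both maps, and the ratio goes from above 1 at 3 to 5 Mb to below 1 beyond 7 Mb.

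Chromosomes differed from each other by more than their counting intervals. The highest ratios, by the lower of both maps, were on chromosome 6 with 1.87 (1.77 to 1.98) in control siRNA and 1.41 (1.36 to 1.47) in CTCF siRNA, on chromosome 7 with 1.35 (1.24 to 1.46) and 1.82 (1.75 to 1.89), and on chromosome 17 with 1.17 and 1.34. These 3 chromosomes had intervals wholly above 1 in both maps under the expectation from distance and under that scaled by coverage, and chromosomes 10 and 11 had ratios above 1 in all 4 cases with an interval that reached 1 in at least 1 of them. The lowest were on chromosome 3 with 0.818 in control siRNA and 0.459 (0.433 to 0.485) in CTCF siRNA, on chromosome 19 with 0.644 and 0.485, and on chromosome 18 with 0.503 and 1.09. On chromosome 18 only 15 short-arm bins were usable, the control held 27 contacts, and the 2 maps lie on opposite sides of 1. Chromosomes 3, 4, 5, 19, 20 and 21 had intervals wholly below 1 in both maps under both expectations. Chromosome 21 had only 6 usable short-arm bins and 26 control contacts, and its control ratio was 0.516 by distance and 0.188 with coverage. Chromosome 12 had ratios below 1 in all 4 cases, 1 of them with an interval that reached 1. The ratio was higher in CTCF siRNA beyond the counting interval on 5 chromosomes and lower on 6.

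Pericentromeric bins of different chromosomes contacted each other more than expected in both maps. The expected number was set for each pair of chromosomes from the pair's contacts and from each bin's share of its chromosome's interchromosomal contacts, usable bins alone were counted, and 75 isolated bin pairs, which stand alone among their neighbours, were left out. Control siRNA had 45269 contacts where 41751 were expected, a ratio of 1.08 (exact Poisson 95% interval 1.07 to 1.09) or 0.12 on the log2 scale. CTCF siRNA had 121818 where 105337 were expected, a ratio of 1.16 (1.15 to 1.16) or 0.21 on the log2 scale. The ratio in CTCF siRNA was 1.07 times (1.06 to 1.08) that in control siRNA. Subtelomeric bins, those in the last 5 Mb of an arm, had higher ratios among themselves, 1.32 (1.3 to 1.34) and 1.44 (1.43 to 1.45). Their ratio in CTCF siRNA was 1.09 times that in control siRNA. Only 2657 of them were usable, fewer than the ends of both arms would hold, and their division over the arms is not given. Their median GC content was 47.7%, against 39.9% in pericentromeric bins. Bins outside the pericentromeres in the class of highest GC content had ratios of 1.31 and 1.42 among themselves. The part of GC content in the subtelomeric ratios was not tested. Pericentromeric with subtelomeric bins were below 1, at 0.969 (0.960 to 0.977) and 0.946 (0.941 to 0.951).

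The excess was graded by distance from the gap. Where both bins lay 0 to 1 Mb from the gap the ratio was 1.49 (1.41 to 1.57) in control siRNA and 1.77 (1.71 to 1.83) in CTCF siRNA. At 1 to 2 Mb it was 1.15 and 1.25, at 4 to 5 Mb 1.04 (0.996 to 1.08) and 1.1 (1.07 to 1.13), and at 20 to 25 Mb, outside the windows, 1.01 and 1.01. The bins nearest the gap thus had the highest ratio in both maps, and they are also those with the most multi-copy sequence, whose part in the ratio was not tested. Without all bins within 1 Mb of the gap the pooled ratios were 1.07 and 1.125, and with expected numbers adjusted for the GC content of both bins they were 1.08 and 1.16.

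**Figure D3:**
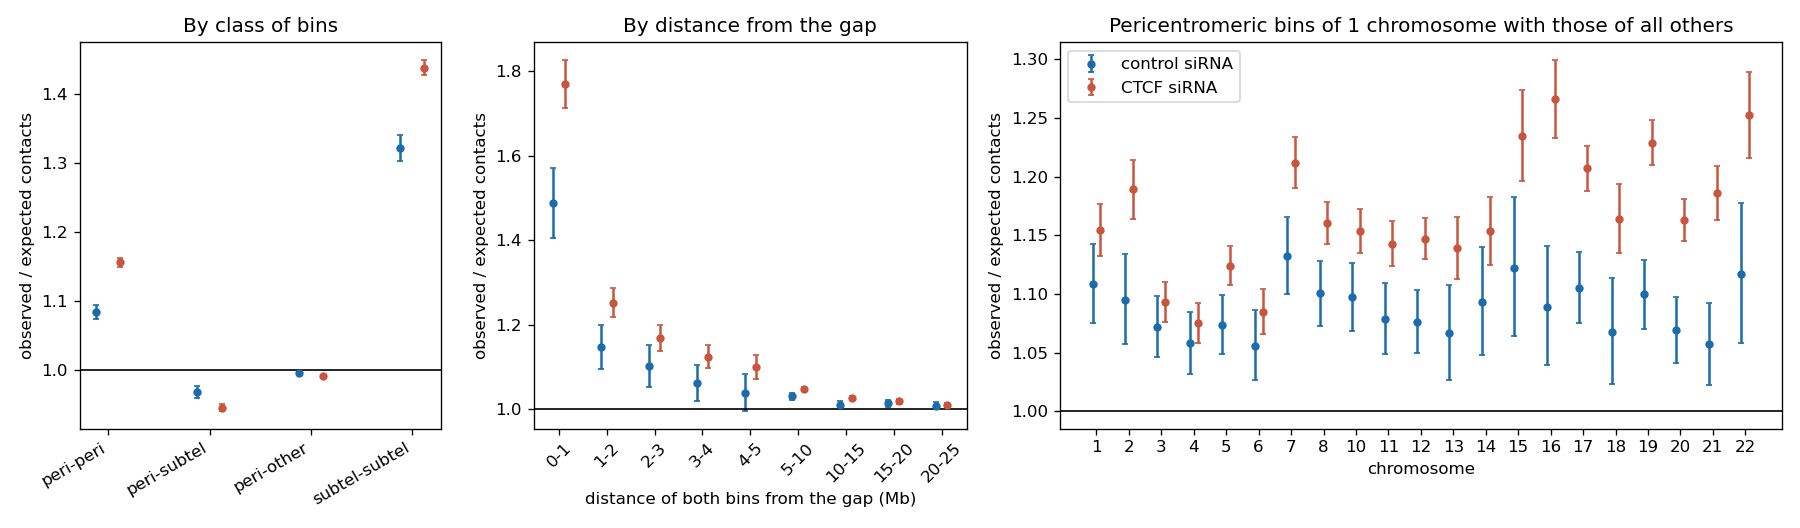
Observed over expected interchromosomal contacts by class of bins (left; peri, pericentromeric; subtel, subtelomeric), by distance of both bins from the centromere gap in Mb (middle) and for the pericentromeric bins of each chromosome with those of all others (right). Bars are exact Poisson 95% intervals. All 21 chromosomes lie above 1 in both maps, and the ratio is highest at 0 to 1 Mb, at 1.49 in control siRNA and 1.77 in CTCF siRNA.

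Every one of the 21 chromosomes with usable pericentromeric bins had a ratio whose interval lay above 1 in both maps. Over chromosomes it ran from 1.06 to 1.13 in control siRNA and from 1.08 to 1.27 in CTCF siRNA. It was higher in CTCF siRNA on all 21, beyond the counting interval on 18. Each contact counts for both of its chromosomes, so the 21 values are not independent. The maps also differed in contacts within chromosomes, 13665333 of 26174682 read pairs in control siRNA and 56304447 of 87658106 in CTCF siRNA. The part of that difference in the ratios was not tested. In CTCF siRNA the highest ratios were those of chromosome 16, at 1.27 (1.23 to 1.3), chromosome 22, at 1.25 (1.22 to 1.29), and chromosome 15, at 1.23 (1.2 to 1.27), whose intervals overlap. Without all strong bin pairs, chromosomes 16, 22, 19 and 15 were at 1.25, 1.25, 1.23 and 1.22, so chromosome 15 no longer had the third highest ratio, and the pooled ratios over all chromosomes were 1.08 and 1.16. The acrocentric chromosomes 13, 14, 15, 21 and 22 carry the ribosomal RNA genes on their short arms. Of those arms only 6 usable bins, on chromosome 21, were counted, so nearly all their usable bins were on long arms. Their ratio among themselves was 1.1 (1.01 to 1.2) in control siRNA and 1.25 (1.19 to 1.31) in CTCF siRNA. Among the other chromosomes it was 1.09 (1.07 to 1.1) and 1.15 (1.14 to 1.16).

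Of 210 pairs of chromosomes, 55 had an interval above 1 in control siRNA and 156 in CTCF siRNA. In both maps 53 had an interval above 1 and 2 an interval below 1. Intervals are narrower in the deeper CTCF siRNA map, so these counts cannot be compared between the maps. The ratio itself was above 1 for 171 and 189 pairs, with medians of 1.08 and 1.17. For subtelomeric bins the interval was above 1 for 97 and 146 of 231 pairs, or 42.0% and 63.2%, and the median ratios were 1.22 and 1.27. The pair with the highest lower bound was chromosomes 3 and 6, with 550 contacts against 364 expected in control siRNA, a ratio of 1.51 (1.39 to 1.64), and 1312 against 829 in CTCF siRNA, 1.58 (1.5 to 1.67). The contacts were unequal over the arms: short arm with short arm gave 2.38 (2.07 to 2.72) and 2.58 (2.36 to 2.81), while long arm with long arm gave 1.1 (0.892 to 1.33) and 1.18 (1.04 to 1.33). The following pairs were chromosomes 14 and 22 with 1.83 and 1.58, 14 and 17 with 1.53 and 1.54, 15 and 16 with 1.77 and 2.31, and 2 and 22 with 1.64 and 1.61. In these 4 the control rested on 41 to 175 contacts. For chromosomes 15 and 16, 57 of the 146 CTCF siRNA contacts and 4 of the 41 control contacts fell in 3 bin pairs that share 18.6 to 22.8% of their 32-mers and were not isolated. Without all strong bin pairs, defined in the next paragraph, that ratio was 1.60 (1.13 to 2.21) in control siRNA and 1.41 (1.13 to 1.74) in CTCF siRNA, so the order of the maps turned.

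A small number of bin pairs stood out alone. A strong pair was an interchromosomal pair of bins with at least 10 contacts and at least 20 times the expected number, and it was called isolated where the mean of its neighbouring pairs was under 10% of its own count, taken over those of the 8 neighbours whose bins had contacts in both maps, at least 3, since a contact between folded regions is shared by neighbouring bins. Control siRNA had 28 strong pairs, of which 12 (42.9%) were isolated, and CTCF siRNA had 557, of which 73 (13.1%) were isolated. Of strong pairs with a pericentromeric bin, 10 of 16 in control siRNA, or 62.5% (Wilson 95% interval 38.6 to 81.5%), and 41 of 109 in CTCF siRNA, or 37.6% (29.1 to 47.0%), were isolated. Of strong pairs without one, 2 of 12 in control siRNA, or 16.7% (4.70 to 44.8%), and 32 of 448 in CTCF siRNA, or 7.14% (5.10 to 9.91%), were isolated. The intervals of pairs with and without a pericentromeric bin overlap in control siRNA and are apart in CTCF siRNA. Strong pairs can neighbour each other, so these intervals are too narrow. Counts of neighbours were not scaled by coverage, which was lowest beside the gap, and the part of coverage in these shares was not tested. Rearranged chromosomes of the cell line were not set apart in either class, and their part in these shares was not tested either. When the deeper map was reduced at random to as many interchromosomal contacts as the control had, 17 isolated pairs with a pericentromeric bin were counted, against 41 in the full map. Their number was 1 in control siRNA and 5 in CTCF siRNA without positions that carry a factor, and 4 and 20 with a minimum of 20 contacts.

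The sequence shared by the bins of a pair, a property the rule did not use, had a higher median in isolated pairs, but the contrast depended on the threshold. Over both maps there were 42 isolated pairs with a pericentromeric bin, 14 of them with both bins pericentromeric and 9 isolated in both maps. The 2 bins of a pair shared a median of 3.27% of the 32-mers of the smaller set, and 29 of the 42 pairs shared at least 1%. In the 68 other strong pairs with a pericentromeric bin the median was 0.380% and 30 shared at least 1%. These were isolated in neither map, which includes any pair with fewer than 3 neighbours to count. At least 10% was shared by 12 of the 42 isolated and 17 of the 68 other pairs, the highest share was 42.2% and 46.0%, and 4 isolated pairs and 1 other shared none. Among strong pairs without a pericentromeric bin the medians were 0.511% for the 33 isolated and 0.151% for the 415 others. The isolated pairs involved 41 pericentromeric bins. Of these, 30 lay within 1 Mb of the gap, where 826 of all 4257 pericentromeric bins lay. On the short arm of chromosome 21 there were 7, out of 18 pericentromeric bins there. The bin at chr10:42360001-42400000, 0.125 Mb from the gap, was part of 4 isolated pairs.

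**Figure D4:**
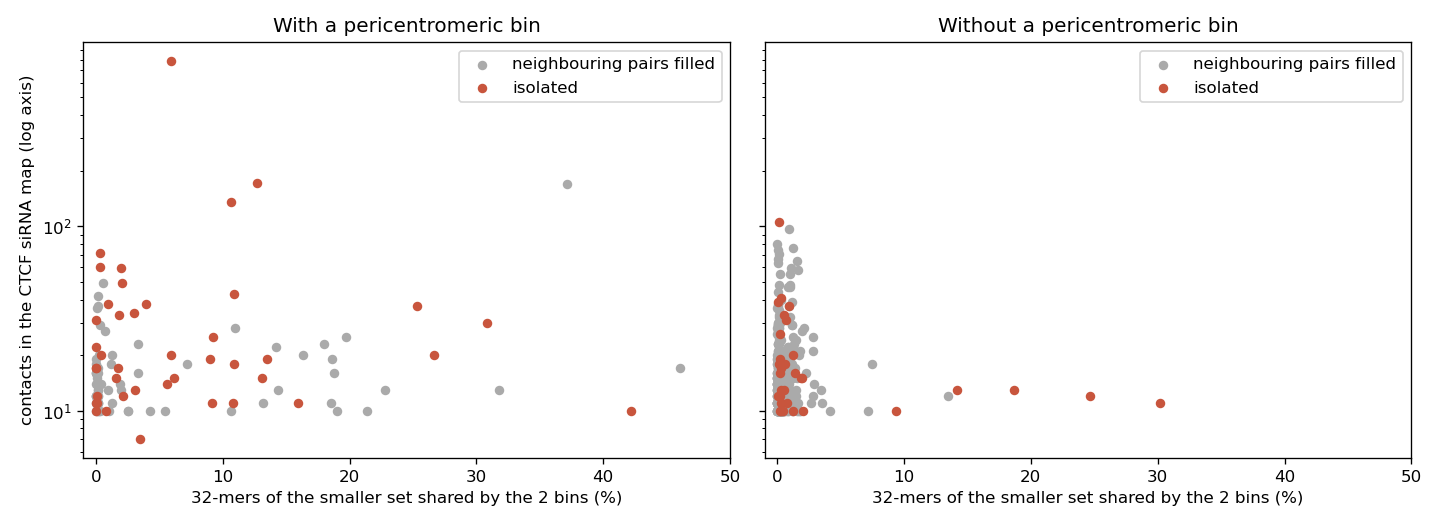
Contacts in the CTCF siRNA map (log axis), a pair being strong in either map, against the share of 32-mers common to the 2 bins (%), for strong interchromosomal bin pairs with (left) and without (right) a pericentromeric bin. Each point is 1 pair, and the label of filled neighbouring pairs stands for all strong pairs that were isolated in neither map. Isolated pairs with a pericentromeric bin shared a median of 3.27% of 32-mers, and the highest point, with 784 contacts, joins bins of chromosomes 1 and 19.

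The pair with the most contacts joined bins of chromosomes 1 and 19 whose midpoints lie 0.0354 and 0.0582 Mb from the gaps, and was chosen after its values were seen. It had 364 contacts in control siRNA and 784 in CTCF siRNA. The bins are unsequenced in part and hold 5434 and 28218 sequenced bases. Bases equal to the base 1 unit further on made up 48.6% of the sequenced bases of the chromosome 1 bin, just under the 50% set above for the alpha satellite period, and 52.1% of those of the chromosome 19 bin, and the bins hold 7 and 31 CENP-B boxes. Their best match covered 4084 bases at 76.8% identity, and its most alike stretch of 150 bases without gaps differed at 18 positions, shown here in capitals to let the sequences be compared (GRCh37, chromosome 1 on the plus and chromosome 19 on the minus strand).
chr1:121481420-121481569: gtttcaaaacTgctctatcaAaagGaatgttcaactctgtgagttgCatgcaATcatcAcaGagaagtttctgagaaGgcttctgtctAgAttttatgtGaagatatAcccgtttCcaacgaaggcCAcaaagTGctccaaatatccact
chr19:27756495-27756644: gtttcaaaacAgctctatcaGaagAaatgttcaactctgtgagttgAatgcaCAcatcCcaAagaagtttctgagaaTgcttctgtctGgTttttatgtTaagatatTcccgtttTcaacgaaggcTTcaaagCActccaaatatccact

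By observed over expected in the lower of both maps, the leading isolated pair joined chr16:33960001-34000000 and chr21:9800001-9840000, with 21 contacts in control siRNA and 60 in CTCF siRNA where about 0.00446 and 0.0116 were expected. None of its neighbouring pairs had a contact in either map. The bins shared only 0.337% of 32-mers, with a best match of 945 bases at 80.2% identity. The most alike 150 bases, shown with their 7 differences in capitals, are the beginning of the 18S ribosomal RNA, and the chromosome 16 bin holds an annotated ribosomal RNA pseudogene (GRCh37, plus strands).
chr16:33962513-33962662: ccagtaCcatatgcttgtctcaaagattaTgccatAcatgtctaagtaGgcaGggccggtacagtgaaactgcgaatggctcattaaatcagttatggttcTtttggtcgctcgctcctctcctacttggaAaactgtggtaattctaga
chr21:9827021-9827170: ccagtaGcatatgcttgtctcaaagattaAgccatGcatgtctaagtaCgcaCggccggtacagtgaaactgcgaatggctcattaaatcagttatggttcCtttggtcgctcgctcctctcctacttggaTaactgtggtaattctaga

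The next pair joined chr9:68680001-68720000, outside the windows, and chr20:29560001-29600000, with 5 and 19 contacts. These bins shared 13.5% of 32-mers and a match of 16920 bases at 95.2% identity, and in the stretch shown the 150 bases of chr9:68695757-68695906 and of chr20:29582689-29582838 were the same (GRCh37, plus strands).
chr9:68695757-68695906: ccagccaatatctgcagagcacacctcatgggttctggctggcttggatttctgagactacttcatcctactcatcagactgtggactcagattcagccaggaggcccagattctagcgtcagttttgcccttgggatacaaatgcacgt

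Of the others named, chr1:143280001-143320000 with chr4:49480001-49520000 had 8 and 172 contacts and shared 12.7% of 32-mers, with a match of 2957 bases at 96.0% identity. The pair of chr7:152120001-152160000, which overlaps the histone methyltransferase gene KMT2C, with chr22:17080001-17120000 had 2 and 11 contacts and shared 9.19%, with a match of 5062 bases at 96.0% identity. The pair of chr7:57680001-57720000 with chr17:21320001-21360000, which overlaps the potassium channel gene KCNJ12, had 5 and 31 contacts and shared none of its 32-mers, with a best match of 324 bases at 73.5% identity. This last pair was isolated by the rule while its best match was the shortest of those given here, and its neighbours had a mean of 2.63 contacts in CTCF siRNA.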

How the data were processed

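Hi-C libraries of LNCaP cells were cut with BglII, mapped by the authors to hg19 with HiCUP and Bowtie 1.1.0, and pooled per condition into 40 kb bins. FastQC 0.11.2, SAMtools 1.2 and Picard 1.121 are named in the submitters' processing notes. The deposited contact values are read-pair counts multiplied by bin factors, which were estimated and divided out: 100% of tested values came out whole to within 0.01 plus 0.05% of the value. The deposited TAD coordinates, which the authors derived with a hidden Markov model of the directionality of contacts, were used as other values without a scale. Groups follow the siRNA that the labels give. All values were computed with Python (numpy, scipy, pandas) and blastn 2.17.0. Gaps came from unsequenced runs of GRCh37, whose coordinates are those of hg19, and genes from GENCODE.

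With 1 pooled map per condition no test between conditions was possible. The members, lists and comparisons were chosen with earlier results of these data known. Positions were named by a fixed rule: the 3 arms with the highest and lowest control TAD cover among those with at least 20 bins, the 3 chromosomes with the highest and lowest arm ratio, the 5 leading pairs of chromosomes, the 5 leading isolated pairs (1 per pair of chromosomes) and the 3 lost and 3 maintained boundaries with the largest change. Tested on simulated data, the functions came close to the known ratios, slightly low for interchromosomal contacts, and found the planted pairs. Intervals cover counting error or spread over positions only, since the libraries of each condition were pooled. Read pairs carry no molecular identifiers.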

Additional observations from a re-analysis of the deposited data

How the results depend on the processing

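Of 62 alternative values other than those leaving out a chromosome, 5 turned a ratio across 1, all for contacts between the arms, 32 lay outside the interval of the value reported and 25 lay within it. Of 13 alternative counts of isolated pairs, which have no interval, 5 differed by more than 1.5 times. None turned the excess between different chromosomes. No paired analysis was possible because the authors pooled the libraries of each condition, so no library was left out either. The causes of the differences below were not tested. Values are given as control siRNA and then CTCF siRNA.

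The arm ratio was 1.5 and 1.33 with a 2 Mb window, 0.784 and 0.776 with 10 Mb, 1.03 and 0.993 with distance counted from the whole unsequenced block, 1.2 and 1.09 without positions that carry a factor, 0.968 and 0.937 with usable bins set at 25%, 0.825 and 0.787 with any contact, and 0.388 and 0.321 without the gap in the distance. Leaving out each chromosome gave 0.873 to 0.983 and 0.851 to 0.944. Among 6 alternatives chosen after seeing the data, expected numbers scaled by coverage gave 0.999 and 0.964, and the deposited values 0.964 and 0.908. The interchromosomal ratio was 1.24 and 1.41 with 2 Mb, 1.05 and 1.08 with 10 Mb, 1.1 and 1.13 without factor positions, 1.07 and 1.125 without the first 1 Mb, and 1.07 and 1.15 with 1 expectation for all chromosomes. In CTCF siRNA it was 1.15 at 25% and 1.17 with any contact. Leaving out each chromosome gave 1.08 to 1.09 and 1.15 to 1.17.

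TAD cover was 86.2% and 91.5% with 2 Mb, the second above that of other bins, and 94.4% and 92.9% in usable bins, both above it. In control siRNA it was 90.2% with 10 Mb and 86.8% from the whole block. Boundary loss was 67.4% where only the same position counted as shared, against 70.3% over all autosomal boundaries. Isolated pairs numbered 1 and 5 without factor positions, 4 and 20 with at least 20 contacts, and 17 in the thinned CTCF siRNA map.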
